A study of Mus musculus with 12 samples.

Results

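The 10 genes examined here, listed under growth factors linked to fibrosis, were Igf1, Pdgfa, Pdgfb, Pdgfc, Tgfb1, Tgfbr1, Tgfbr2, Tgfbi, Gdf15 and Areg. Of these, 8 are among the 16593 gene names on the array. They were read in Kupffer cells, liver macrophages grown here in culture. Every probe that the platform annotation assigns to these 10 symbols was used, whatever its value, which gave 14 of the 25697 probes on the array and covered 8 genes. No probe was assigned to Gdf15 or Areg, so neither gene was analysed here. The cells came from male C57BL/6 mice aged 8 weeks, were isolated by collagenase perfusion and a Percoll gradient, and were kept in primary culture. The 12 Illumina bead arrays, 1 per RNA sample, make up 6 groups of 2. LPS cells received lipopolysaccharide, a bacterial surface component, at 10 ng/ml (labelled M1), IL-4 cells received the type 2 cytokine interleukin 4 at 20 ng/ml (labelled M2), and M0 cells had no named treatment. SR3335 cells received a compound known as an inverse agonist of ROR-alpha, a nuclear receptor, printed as 10 mM, SR1078 cells received a ROR agonist, printed as 5 mM, and Veh cells received DMSO alone. The unit of these printed concentrations is in doubt. All groups but M0 were treated for 24 h, and no time is given for M0, so treatment and time in culture cannot be told apart in the comparisons with M0. Whether the 2 arrays of a group hold separate mice or cultures is not given, so p-values rest on the spread between these samples alone, and that spread may be technical.

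Apart from the receptor genes Tgfbr1 and Tgfbr2 and the adhesion protein gene Tgfbi, these genes encode growth factors or related signals. Macrophages are known to act by such signals on the fibroblast-like stellate cells that lay down scar matrix in the liver. Platelet-derived growth factors bind the receptor kinases Pdgfra and Pdgfrb and drive stellate cell division, and Pdgfc is secreted in a latent form that proteases cleave. Transforming growth factor beta (Tgfb1) is also secreted latent, signals through the receptor kinases Tgfbr2 and Tgfbr1 to SMAD proteins, and induces matrix genes, among them Tgfbi, which encodes a secreted adhesion protein. Insulin-like growth factor 1 (Igf1) is a secreted ligand of Igf1r and is made by hepatocytes and by macrophages in tissue repair. Gdf15 is a stress-induced relative of TGF-beta, and Areg is a ligand of the EGF receptor.

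Promoter sequence is shown for Igf1, Pdgfc and Tgfbi, 3 of the genes called after LPS, because the compounds act on a DNA-binding receptor and LPS on factors with known motifs. The sequences are the 250 bases before a RefSeq transcript start (GRCm38.p6), 5′ to 3′ on the plus strand, at chr10:87860861-87861110 for Igf1, chr3:81036166-81036415 for Pdgfc and chr13:56609336-56609585 for Tgfbi. The Igf1 start used lies inside the gene (chr10:87858265-87937047), and the outermost start of Igf1 had no window and was not searched. Capitals mark motif matches.
Igf1: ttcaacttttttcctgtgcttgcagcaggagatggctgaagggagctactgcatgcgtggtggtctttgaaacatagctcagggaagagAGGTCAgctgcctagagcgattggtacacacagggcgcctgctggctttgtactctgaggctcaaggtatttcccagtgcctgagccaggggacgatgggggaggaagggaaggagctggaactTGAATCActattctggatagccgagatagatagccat
Pdgfc: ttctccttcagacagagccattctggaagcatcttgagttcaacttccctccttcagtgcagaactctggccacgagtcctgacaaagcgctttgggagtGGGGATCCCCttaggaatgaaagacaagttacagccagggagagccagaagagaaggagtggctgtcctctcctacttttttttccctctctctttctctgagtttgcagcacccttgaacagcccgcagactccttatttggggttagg
Tgfbi: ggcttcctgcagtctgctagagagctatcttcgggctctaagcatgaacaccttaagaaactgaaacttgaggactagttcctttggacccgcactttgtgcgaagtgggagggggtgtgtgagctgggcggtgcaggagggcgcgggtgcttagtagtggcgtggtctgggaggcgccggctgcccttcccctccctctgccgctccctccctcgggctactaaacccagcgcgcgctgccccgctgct
The search covered 12 windows of 9 of the genes, each of 250 bases before and 50 after a start, on both strands, and Pdgfb had no entry. The ROR element core AGGTCA lay in the Igf1 window at -161 and in 1 Gdf15 window at -55, and 16.3% of 32851 mouse windows hold it. A relaxed form of the AP-1 motif, TGANTCA with any base at its centre, was found in 7.81% of windows. This relaxed form lay in the Igf1 window at -37 as TGAATCA, and a stricter form was not searched. The NF-kB motif, found in 4.51% of windows, lay in the Pdgfc window at -150 as GGGGATCCCC, which matches on both strands at 1 place. The TATA box TATAAA (13.6% of windows) lay in the Areg window at -31, and the STAT6 motif (6.95%) lay in none of them. No match overlapped another motif's match.

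The processed values fell into 2 sets of 6 arrays with separate normalization, a polarization set (LPS, IL-4 and M0) and a compound set (SR3335, SR1078 and Veh), and all comparisons were made within a set. Background levels lay between 155.5 and 163.9 intensity units in the polarization set and between 94.4 and 105.3 in the compound set, so levels were not compared across sets. Between 11474 and 12623 probes were detected per array, replicate arrays correlated across the tested probes at 0.9901 to 0.9962, and a probe of median spread had a standard error (SE) of 0.13 in its log2 difference in the polarization set and 0.10 in the compound set. Levels below are background-corrected, quantile-normalized log2 signals, and a probe was called when its limma test gave a Benjamini-Hochberg adjusted p under 0.05 over all probes tested. Of the 14 probes, 12 were tested in the polarization set and 11 in the compound set. Pdgfb ILMN_2726543 and Tgfbr1 ILMN_1214505 were detected on no array, and Tgfbr1 ILMN_2708965 on no array of the compound set. Of 9 Kupffer cell markers on the array, Adgre1, Clec4f, Vsig4, Timd4, Marco, C1qa, C1qb and C1qc were detected on all 12 arrays, and the probe of Cd5l on none.

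LPS cells had less Igf1, Pdgfc, Tgfbr1 and Tgfbr2 RNA than M0 cells and more Tgfbi RNA. Of the 12 tested probes, 7 were called, 2 higher and 5 lower, where 20% of all 12371 probes were called (9.51% higher and 10.5% lower). The median log2 difference was -0.34 over the 12 probes and -0.01 over all probes. The 2 groups did not overlap for 11 of the 12 probes, as for 67.6% of all probes. In these bulk samples, fewer cells of a type and less RNA per cell cannot be told apart.

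**Figure D1:**
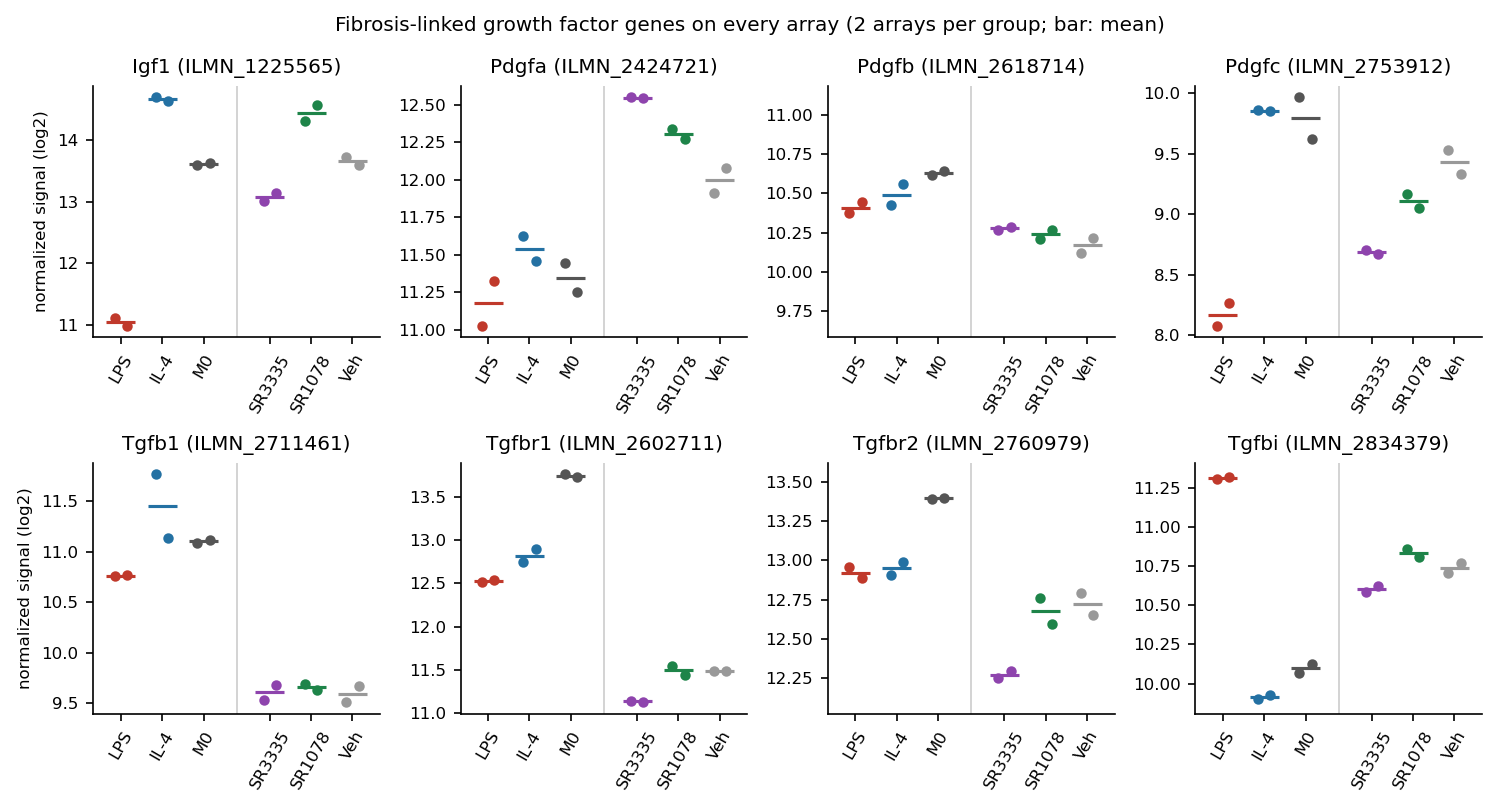
Normalized log2 signal on each of the 12 arrays for the probe of each gene with the highest mean, with the mean of 2 arrays as a bar and the array sets separated by a grey line. In the polarization set Igf1 sits near 11 in LPS cells and above 14 in IL-4 cells, and Tgfbi is highest in LPS cells. In the compound set Igf1 is highest in SR1078 cells. Vertical axes differ between panels.

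Among the ligands, Igf1 (chr10:87858265-87937047) had log2 levels of 11.11 and 10.98 on the LPS arrays, against 13.59 and 13.63 on the M0 arrays. Both LPS arrays lay far below both M0 arrays, and the bead signals before normalization were 2119 and 2094 in LPS cells, against 12959 and 13508 in M0 cells. Igf1 fell by 2.56 on the log2 scale (SE 0.10, adjusted p = 0.000418), a level 5.91-fold lower in LPS cells, and its difference was larger than that of 99.7% of tested probes.

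Pdgfc (chr3:81036416-81214040) had log2 levels of 8.08 and 8.26 in LPS cells, against 9.97 and 9.62 in M0 cells. The groups did not overlap, and Pdgfc fell by 1.62 (SE 0.15, adjusted p = 0.00244), which is 3.08-fold lower. The other ligands passed no test. Pdgfa, which encodes the A chain of the dimeric factor, had levels of 11.03 and 11.33 in LPS cells, against 11.44 and 11.25 in M0 cells, and these overlapped. Pdgfb, the B chain, differed by -0.22 (SE 0.10, adjusted p = 0.176). When each array was centred on its median in place of quantile normalization, Pdgfb was called (-0.40, or -0.27 relative to the median of all probes, adjusted p = 0.0434). That scaling moved the median of all probes to -0.13 and the share of higher calls to 28.9%, against 47.5%, and the 7 calls above kept their direction. Tgfb1 had levels of 10.76 and 10.77 in LPS cells, against 11.09 and 11.12 in M0 cells. The groups did not overlap, but the difference of -0.34 (SE 0.21) had an adjusted p of 0.306. Without IL-4 replicate 1 or IL-4 replicate 2 it was called at the same size (adjusted p = 0.0429 and 0.0437), as it was in a fit of the LPS and M0 arrays alone (adjusted p = 0.0463).

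Both TGF-beta receptor genes had a called probe that was lower after LPS. Tgfbr1 ILMN_2602711 had levels of 12.51 and 12.54 in LPS cells, against 13.77 and 13.73 in M0 cells, with no overlap. It fell by 1.22 (SE 0.10, adjusted p = 0.00206), a level 2.33-fold lower. The dim probe ILMN_2980532 of Tgfbr1, detected on 1 of 2 LPS arrays, fell by 1.10 (SE 0.16, adjusted p = 0.00909), and without M0 replicate 1 or LPS replicate 1 it was no longer called (adjusted p = 0.0558 and 0.0523). The third tested Tgfbr1 probe, ILMN_2708965, differed by -0.34 (adjusted p = 0.205) near the detection limit. Tgfbr2 ILMN_2760979 had levels of 12.96 and 12.89 in LPS cells, against 13.39 and 13.40 in M0 cells. These groups did not overlap, and the probe fell by 0.48 (SE 0.10, adjusted p = 0.0234), but leaving out M0 replicate 1, M0 replicate 2, LPS replicate 1 or LPS replicate 2 ended the call (adjusted p = 0.115, 0.123, 0.101 and 0.126). The dimmer Tgfbr2 probe ILMN_1242086 differed by -0.26 (adjusted p = 0.43).

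Tgfbi (chr13:56609586-56639359) moved the other way on both of its probes. ILMN_2834379 had levels of 11.30 and 11.31 in LPS cells, against 10.07 and 10.13 in M0 cells, and rose by 1.21 (SE 0.09, adjusted p = 0.00157), which is 2.31-fold. ILMN_2727663 had levels of 8.90 and 8.90 in LPS cells, against 7.28 and 7.88 in M0 cells. The LPS arrays lay above both M0 arrays on both probes, although the M0 arrays differed from each other by more on the second. ILMN_2727663 rose by 1.32 (SE 0.20, adjusted p = 0.0107), and without LPS replicate 1 or LPS replicate 2 it missed the threshold (adjusted p = 0.0615 and 0.0617). Without background correction the differences of the dim probes were smaller, 0.88 for Tgfbi ILMN_2727663 and -0.40 for Tgfbr1 ILMN_2980532, both still called.

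**Figure D2:**
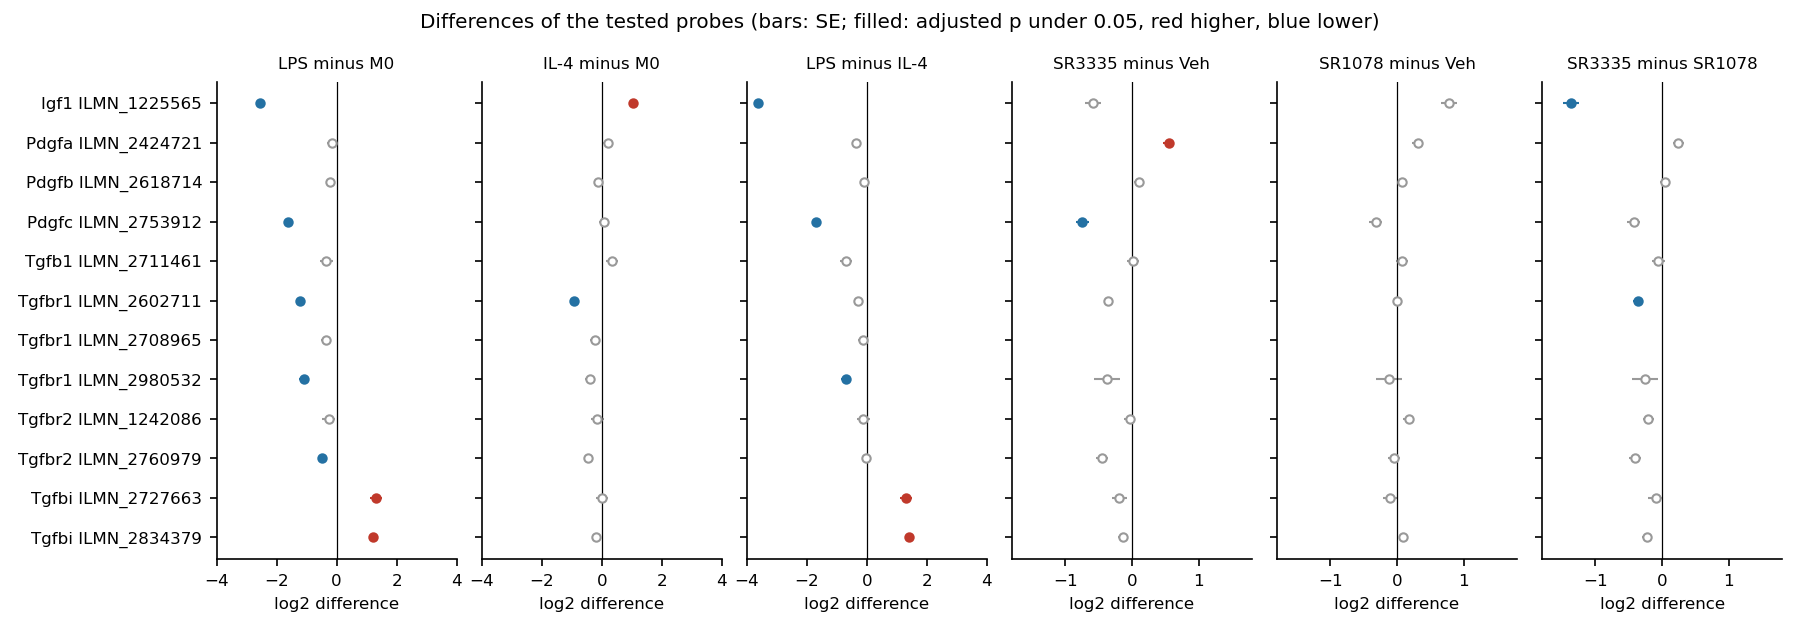
Log2 difference and its SE for each tested probe in the 6 comparisons, with filled symbols for calls (red higher, blue lower). Igf1 spans -2.56 in LPS minus M0 and 1.05 in IL-4 minus M0, and the axes of the compound comparisons are narrower.

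Markers of other cell types also moved with LPS, and their part in these results was not tested. The summed level of the 14 stellate cell and fibroblast markers on the array was 1400 to 1558 in LPS cells and 771 to 814 in M0 cells, with 3 to 5 of them detected. Among these, Dcn (1.39) and Acta2 (0.54) rose, while Col1a1, Col3a1, Lrat, Pdgfra and Pdgfrb were detected on no array. The 9 Kupffer cell markers summed to 84243 to 87232 in LPS cells and 137918 to 145321 in M0 cells, and 4 of the 8 tested fell (Vsig4, C1qc, C1qa and C1qb). The hepatocyte markers, 6 to 7 of 10 detected, summed to 5189 to 5367 in LPS cells and 6152 to 6619 in M0 cells, and Alb was detected on no array. Of 5 platelet markers Pf4 rose (1.07), and Ppbp, Itga2b, Gp9 and Gp1bb were detected on no array. The 8 neutrophil markers, 2 to 3 of them detected, summed to 4307 to 5250 in LPS cells and 349 to 356 in M0 cells. S100a8 rose by 4.70 and Ltf fell by 0.96, and Mpo, Ngp, Mmp8 and Cxcr2 were detected on no array. The 9 T and NK cell markers, 6 to 7 of them detected, summed to 3190 to 3215 in LPS cells and 4474 to 4842 in M0 cells. Of 7 tested, 2 fell, Cd3g (-0.76) and Nkg7 (-0.76), and Cd3d, Cd3e, Cd3g and Cd2 were detected on all 12 arrays. The 4 B cell markers summed to 161 to 177 in LPS cells and 242 to 248 in M0 cells, and Cd79b, the 1 tested, fell by 0.67. Of 12 tested sinusoidal endothelial markers 3 rose and 3 fell, with sums of 8877 to 9462 in LPS cells and 7433 to 7562 in M0 cells.

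IL-4 cells had more Igf1 RNA and less Tgfbr1 RNA than M0 cells. Of the 12 tested probes, 2 were called, 1 in each direction, where 7.16% of all probes were called (3.4% higher and 3.76% lower). For 9 of the 12 the arrays of the groups did not overlap, as for 57.7% of all probes. The median difference was -0.14 over the 12 probes and -0.02 over all. Igf1 had log2 levels of 14.69 and 14.63 in IL-4 cells, against 13.59 and 13.63 in M0 cells. Both IL-4 arrays lay above both M0 arrays, and Igf1 rose by 1.05 (SE 0.10, adjusted p = 0.00911), which is 2.08-fold. Tgfbr1 ILMN_2602711 had levels of 12.74 and 12.90 in IL-4 cells, against 13.77 and 13.73 in M0 cells. It fell by 0.93 (SE 0.10, adjusted p = 0.0121). Of the dim Tgfbr1 probes, ILMN_2980532 differed by -0.39 (adjusted p = 0.186) and ILMN_2708965 by -0.22 (adjusted p = 0.433), neither called. Both calls depended on having 2 M0 arrays: without M0 replicate 1 or M0 replicate 2 the adjusted p was 0.0961 and 0.0912 for Igf1 and 0.113 and 0.102 for Tgfbr1.

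Tgfbr2 ILMN_2760979 had levels of 12.91 and 12.99 in IL-4 cells, against 13.39 and 13.40 in M0 cells. The groups did not overlap, and the difference of -0.45 (SE 0.10, adjusted p = 0.052) missed the threshold, although 6 of 9 other settings called it (sizes -0.44 to -0.52). The dimmer Tgfbr2 probe ILMN_1242086 differed by -0.15 (adjusted p = 0.696). The IL-4 arrays disagreed on Tgfb1, at 11.77 and 11.13, against 11.09 and 11.12 in M0 cells. Both IL-4 arrays stood above both M0 arrays, the second only just. The difference of 0.35 (SE 0.21) was not called (adjusted p = 0.333), and without IL-4 replicate 2 it was 0.67. Pdgfc had levels of 9.86 and 9.85 in IL-4 cells, against 9.97 and 9.62 in M0 cells, which overlapped. Its difference of 0.06 had a 95% interval from -0.30 to 0.43. Both Tgfbi probes differed little from M0, by -0.18 (95% interval -0.41 to 0.05) and 0.01 (-0.49 to 0.51). Kupffer cell markers summed to 159421 to 172452 in IL-4 cells and 137918 to 145321 in M0 cells, and none was called. The 13 sinusoidal endothelial markers summed to 11248 to 11970 in IL-4 cells and 7433 to 7562 in M0 cells, with 5 of them called higher. The hepatocyte markers, which matter for Igf1 as hepatocytes are known to make it, summed to 6536 to 7910 in IL-4 cells and 6152 to 6619 in M0 cells, and none was called. The T and NK cell markers, 7 of 9 detected, summed to 3446 to 3863 in IL-4 cells and 4474 to 4842 in M0 cells, and 2 of 7 tested fell, Cd2 (-0.83) and Cd3g (-0.65). Acta2 fell by 0.56 among 5 tested stellate cell and fibroblast markers, which summed to 584 to 710 in IL-4 cells and 771 to 814 in M0 cells. Pf4 rose by 1.43, and Itgax, a dendritic cell marker detected on no M0 array, also rose. Flt3, Zbtb46, Xcr1, Clec9a, Ccr2 and F13a1 of the same list were detected on no IL-4 or M0 array. The part of these markers in the results was not tested.

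Set directly against IL-4 cells, LPS cells had 12.3-fold less Igf1 RNA. The difference was -3.62 (SE 0.10, adjusted p = 0.000109). Of the 12 tested probes, 5 were called, 2 higher and 3 lower, where 25.4% of all probes were called (12% higher and 13.5% lower). For 8 of them the groups did not overlap, as for 64.8% of all probes. The median difference was -0.21 over these probes and 0.01 over all, and with median centring 35.6% of all calls were higher, against 47%. Pdgfc was lower in LPS cells by 1.69 (SE 0.15, adjusted p = 0.00159), and Tgfbi was higher by 1.39 (adjusted p = 0.000664) and 1.31 (adjusted p = 0.00827) on its probes. Tgfbr1 ILMN_2980532 was lower by 0.71 (adjusted p = 0.0261), a call that ended without LPS replicate 1, IL-4 replicate 1 or IL-4 replicate 2 (adjusted p = 0.121, 0.0842 and 0.065). For the bright Tgfbr1 probe the difference was -0.29 (SE 0.10, adjusted p = 0.0889). Tgfb1 was not called (-0.69, SE 0.21, adjusted p = 0.0627), and without IL-4 replicate 2, the lower IL-4 array, it was -1.01 with an adjusted p of 0.00741. Markers of T and NK cells summed to 3190 to 3215 in LPS cells and 3446 to 3863 in IL-4 cells, with 1 called higher and 2 lower, and those of Kupffer cells to 84243 to 87232 in LPS cells and 159421 to 172452 in IL-4 cells, with 2 called higher and 4 lower. Stellate cell and fibroblast markers summed to 1400 to 1558 in LPS cells and 584 to 710 in IL-4 cells, with Dcn and Acta2 called higher. Their part was not tested. Within this set the order of Igf1 levels was LPS, M0 and IL-4 from low to high, with each neighbouring pair called. For Pdgfc, IL-4 and M0 were not separated, and for Tgfbr2 ILMN_2760979, LPS and IL-4 were not (difference -0.03, 95% interval -0.27 to 0.21).

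In the compound set, SR3335 cells had more Pdgfa and less Pdgfc RNA than Veh cells. Of the 11 tested probes, 2 were called, 1 in each direction, where 5.32% of all 12918 probes were called (2.79% higher and 2.53% lower), and the median difference was -0.19 over the 11 probes against 0.00 over all. Of the 11 probes, 9 had groups that did not overlap, as for 54.7% of all probes. Pdgfa had log2 levels of 12.55 and 12.55 in SR3335 cells, against 11.91 and 12.08 in Veh cells. The groups did not overlap, and Pdgfa rose by 0.55 (SE 0.08, adjusted p = 0.0284), which is 1.47-fold. Leaving out any array of the set ended that call, with adjusted p values of 0.143 and 0.0833 without Veh replicate 1 and 2, 0.126 and 0.104 without SR3335 replicate 1 and 2, and 0.0568 and 0.059 without SR1078 replicate 1 and 2. It was also lost with all 12 arrays fitted together (0.057), with only the SR3335 and Veh arrays (0.0626) and with the replicate block (0.0615). Pdgfc had levels of 8.70 and 8.67 in SR3335 cells, against 9.53 and 9.33 in Veh cells. It fell by 0.74 (SE 0.10, adjusted p = 0.02), which is 1.68-fold lower, and missed the threshold without Veh replicate 1 or 2 (adjusted p = 0.117 and 0.0671) or SR3335 replicate 1 or 2 (adjusted p = 0.103 and 0.0887), as in a fit of the SR3335 and Veh arrays alone (0.0507).

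For another 3 members the test against Veh in SR3335 cells came close to the threshold without passing it. Igf1 had levels of 13.01 and 13.14 in SR3335 cells, against 13.73 and 13.59 in Veh cells. The arrays did not overlap, and the difference of -0.59 (SE 0.12, unadjusted 95% interval -0.87 to -0.30) had an adjusted p of 0.0501. For this probe the deposited signals and processed values disagree in the compound set, and the processed values give calls. Tgfbr2 ILMN_2760979 had levels of 12.25 and 12.29 in SR3335 cells, against 12.79 and 12.65 in Veh cells, a difference of -0.45 (SE 0.09, adjusted p = 0.0545). Tgfbr1 ILMN_2602711 had levels of 11.14 and 11.12 in SR3335 cells, against 11.48 and 11.49 in Veh cells, a difference of -0.35 (SE 0.07, adjusted p = 0.053). Each of these 3 was called by several other settings, among them the stricter detection filter (adjusted p = 0.0241, 0.0272 and 0.0263). In the same order, none was called with no filter (limma adjusted p = 0.0753, 0.087 and 0.092). The same held with only the SR3335 and Veh arrays (0.0643, 0.0778 and 0.0829) and with the replicate block (0.0828, 0.0824 and 0.0908). The dimmer Tgfbr2 probe ILMN_1242086 differed by -0.03 (adjusted p = 0.864), and the dim Tgfbr1 probe ILMN_2980532 by -0.38 (adjusted p = 0.309). Tgfb1, at 9.53 and 9.68 in SR3335 cells against 9.51 and 9.67 in Veh cells, differed by 0.02 (95% interval -0.21 to 0.25), and the Tgfbi probes differed by -0.13 and -0.19, neither called. Kupffer cell markers summed to 87400 to 89369 in SR3335 cells, 94360 to 97594 in SR1078 cells and 99897 to 102116 in Veh cells. None of them was called against Veh in SR3335 or SR1078 cells. The stellate cell and fibroblast markers summed to 4615 to 5462 in SR3335 cells and 3804 to 3879 in Veh cells, with 5 of 14 detected in each and none called. The hepatocyte markers summed to 10506 to 13233 in SR3335 cells, 10874 to 12100 in SR1078 cells and 9879 to 10346 in Veh cells. Of 12 tested sinusoidal endothelial markers 3 fell in SR3335 cells (Ptprb, Stab2 and Lyve1), with sums of 19813 to 20606 in SR3335 cells and 20656 to 21218 in Veh cells. The neutrophil markers, 4 of 8 detected, summed to 2466 to 2555 in SR3335 cells and 1764 to 1827 in Veh cells, and S100a8 rose by 0.54. The dendritic cell and monocyte markers, 2 of 7 detected, summed to 419 to 459 in SR3335 cells and 306 to 313 in Veh cells, and Zbtb46 rose by 0.64. Krt7 rose by 0.38 as the 1 tested of 4 cholangiocyte markers. The part of these markers was not tested.

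In SR1078 cells no tested probe of these genes was called against Veh, where 1.05% of all probes were (0.828% higher and 0.224% lower). By the limma test, 3 of the 11 had an unadjusted p under 0.05, as had 2652 of all 12918 probes. The median difference was 0.07, against -0.01 over all. There was no overlap for 5 of the 11 probes, as for 53.6% of all probes. Other settings called 0 to 2 of them. Igf1 had levels of 14.31 and 14.57 in SR1078 cells, against 13.73 and 13.59 in Veh cells. Both SR1078 arrays were higher, by 0.78 on average (SE 0.12, unadjusted 95% interval 0.49 to 1.07, adjusted p = 0.0517), which is 1.72-fold. Pdgfa had levels of 12.34 and 12.27 in SR1078 cells, against 11.91 and 12.08 in Veh cells (difference 0.31, adjusted p = 0.13). Pdgfc had levels of 9.17 and 9.05 in SR1078 cells, against 9.53 and 9.33 in Veh cells (difference -0.32, adjusted p = 0.155). The arrays did not overlap for either gene. For Tgfbr1 ILMN_2602711 and Tgfbr2 ILMN_2760979 the arrays overlapped, with differences of 0.01 (95% interval -0.17 to 0.18) and -0.04 (-0.27 to 0.19). The B cell markers, 2 of 4 detected, summed to 845 to 854 in SR1078 cells and 495 to 563 in Veh cells, and both tested ones rose (Cd79a by 0.93 and Cd79b by 0.58). Among 12 endothelial markers Cdh5 rose by 0.59 and Clec4g fell by 1.00, and the Clec4g probe is among those whose deposited tables disagree. Their part was not tested.

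SR3335 cells, set directly against SR1078 cells, had less Igf1 and Tgfbr1 RNA. The concentrations of the 2 compounds differ, as printed, so these values compare treatments and not equal doses. Of the 11 tested probes, 2 were called, both lower, where 5.99% of all probes were called (3.1% higher and 2.9% lower). No overlap was seen for 8 of the 11, as for 54.4% of all probes, and the median was -0.23 over the 11 probes and 0.00 over all. With median centring 35.5% of all calls were higher, against 51.7%. Igf1 was lower by 1.36 (SE 0.12, adjusted p = 0.00976), which is 2.57-fold and a larger difference than that of 99.9% of tested probes. Without SR3335 replicate 1 or 2 the adjusted p was 0.0745 and 0.0548, and without SR1078 replicate 1 or 2 it was 0.0604 and 0.0787, at sizes of -1.24 to -1.50. Tgfbr1 ILMN_2602711 had levels of 11.14 and 11.12 in SR3335 cells, against 11.54 and 11.44 in SR1078 cells, and was lower by 0.36 (SE 0.07, adjusted p = 0.0478). Leaving out any array ended that call (adjusted p 0.0918 to 0.16), as did 5 of the 9 other settings. The dim Tgfbr1 probe ILMN_2980532 differed by -0.25 and was not called (adjusted p = 0.479). Pdgfc (-0.42, adjusted p = 0.0636), Tgfbr2 ILMN_2760979 (-0.41, adjusted p = 0.0655) and Pdgfa (0.24, adjusted p = 0.154) were not called either. From low to high, Igf1 ran SR3335, Veh and SR1078, with only the ends separated by the test, and Pdgfc ran SR3335, SR1078 and Veh, with the pair SR1078 and Veh and the pair SR3335 and SR1078 not separated. Markers called lower in SR3335 than in SR1078 cells were Cd79a and Cd79b of B cells and 3 of 12 endothelial ones, and those called higher were Zbtb46, F13a1 and the endothelial Clec4g. Their part was not tested.

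Igf1 was also read from the authors' processed log2 values, because both deposited tables hold the same arrays. In the polarization set quantile normalization of the signals gave the authors' values of all 25697 probes to within 0.0035. In the compound set it did so to within 0.0128 for all but 30 probes, and Igf1 was the only gene of this group among the 30. The Igf1 signal gave a value 0.28 below the processed one on Veh array 2, 0.10 below on SR3335 array 1, 0.08 above on SR3335 array 2, 0.01 below on SR1078 array 1, 0.04 below on SR1078 array 2 and 0.01 above on Veh array 1. Of 308364 signals in the table, 39 are written with more than 7 significant digits, all on compound set arrays and in 9 probes that belong to the 30, and 5 of the 39 are Igf1's. The cause was not tested, and neither table can be taken here as the correct one for this probe.

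In the processed values Igf1 read 13.13 and 13.08 in SR3335 cells, 14.32 and 14.61 in SR1078 cells, and 13.73 and 13.88 in Veh cells. The order of the groups was that of the signals, and no groups overlapped. A limma fit of these values gave -0.70 for SR3335 minus Veh (adjusted p = 0.00138), 0.66 for SR1078 minus Veh (adjusted p = 0.00432) and -1.37 for SR3335 minus SR1078 (adjusted p = 3.85e-05), so all 3 were called. The signals without background correction also gave calls against Veh, -0.58 for SR3335 (adjusted p = 0.00411) and 0.77 for SR1078 (adjusted p = 0.00192). In the polarization set the processed values gave -2.48 for LPS minus M0 and 1.05 for IL-4 minus M0.

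**Figure D3:**
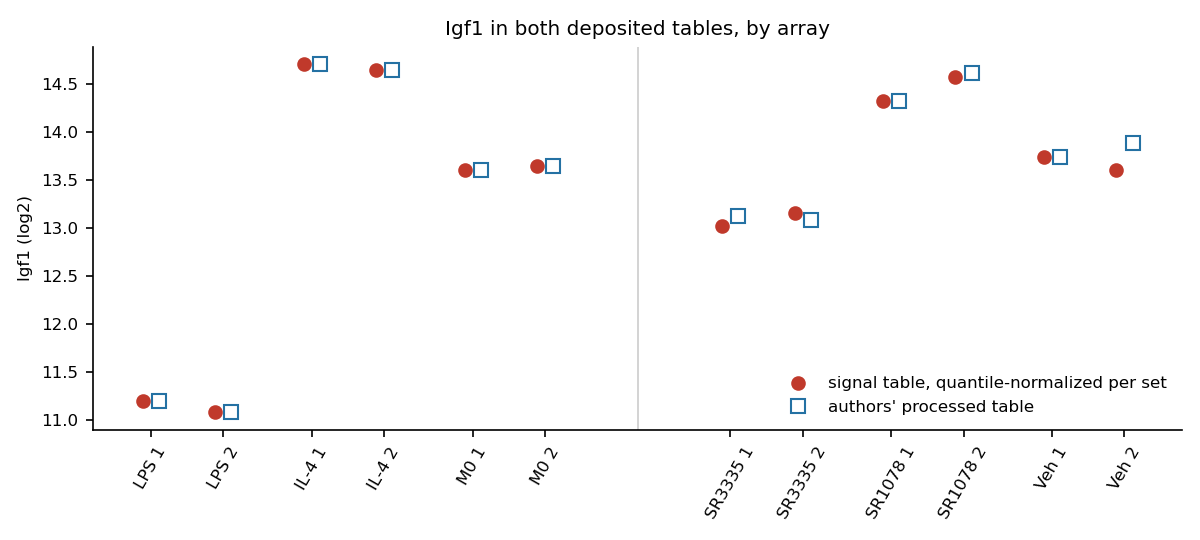
Igf1 log2 value on each array from the signal table after quantile normalization within its set (circles) and from the authors' processed table (squares). The symbols coincide in the polarization set and separate by up to 0.28 in the compound set, most on Veh array 2.

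Other genes of the same pathways were read from lists with 1 probe per gene. Over all genes, 9.14% rose and 11.3% fell in LPS cells, and 3.28% rose and 4.12% fell in IL-4 cells. For SR3335 cells these shares were 2.95% and 2.7%, and for SR1078 cells 0.913% and 0.236%. Counts from every list below are to be read beside these shares. Among 17 tested genes of TGF-beta ligands, activation and signalling, 8 rose and 2 fell in LPS cells, where 9.14% and 11.3% of all 9358 genes were called, and the median difference was 0.39 against -0.03 over all genes. The largest rises were Smurf1 (1.20 ± 0.23 SE), a ubiquitin ligase that targets SMAD signalling, and Acvrl1 (0.87 ± 0.10 SE), a type I receptor of the family. The falls were Tgfb3 (-1.44 ± 0.36 SE, detected on 1 of 2 LPS arrays), a further TGF-beta ligand, and Nrros (-0.72 ± 0.10 SE), which anchors latent TGF-beta on macrophages. In IL-4 cells, where 3.28% of genes rose and 4.12% fell, 1 of the 17 rose, Acvrl1 (0.57 ± 0.10 SE), and 2 fell, the inhibitory Smad6 (-0.81 ± 0.13 SE) and the SMAD repressor Skil (-0.71 ± 0.14 SE). In the compound set 18 were tested, of which Itgav (0.58) rose and Ltbp3 (-0.56) fell in SR3335 cells and Tgfbr3 (0.60) rose in SR1078 cells.

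**Figure D4:**
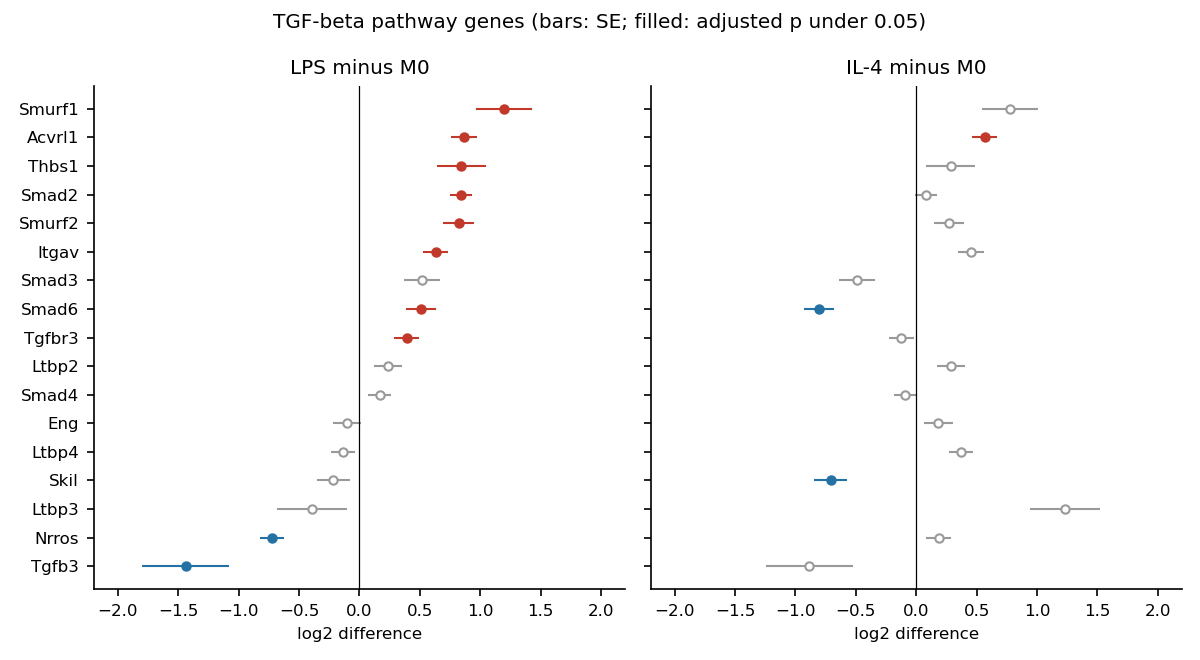
Log2 difference and its SE for 17 tested genes of TGF-beta ligands, activation and signalling, in LPS minus M0 and IL-4 minus M0, with filled symbols for calls (red higher, blue lower). In LPS cells 8 genes are filled on the right and 2 on the left, and in IL-4 cells 1 and 2.

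Of genes that TGF-beta is known to induce, 6 were tested in the polarization set. Ccn2, which encodes a matrix-associated protein, fell by 1.31 in LPS cells and none rose. In IL-4 cells the cell cycle inhibitor Cdkn1a rose by 1.28, and Skil, a member of both lists, fell. In SR3335 cells Cdkn1a (0.58) and Cdkn2b (0.41) rose among 5 tested, with both Cdkn1a probes among the 30 whose tables differ, and in SR1078 cells none was called. By median these genes differed by -0.18 in LPS minus M0 and by 0.40 in SR3335 minus Veh.

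In the IGF list 8 genes were tested in the polarization set, and 1 rose and 1 fell in LPS cells. These were Igfbp4 (1.11 ± 0.18 SE), which binds IGF1 outside the cell, and Igf2r (-0.50 ± 0.11 SE), which clears IGF2. In IL-4 cells 1 of the 8 was called, the insulin and IGF receptor adapter Irs2, which fell by 1.26. In the compound set 3 of 7 rose in SR3335 cells, Igfbp4 (1.10 ± 0.07 SE), the receptor adapter Grb10 (0.73 ± 0.09 SE) and Igfbp7 (0.58), where 2.95% of 9744 genes rose. Grb10 (0.96) and Igfbp7 (0.61) also rose in SR1078 cells, where 0.913% of genes rose, and Igfbp4 was higher in SR3335 cells than in SR1078 cells by 0.97 ± 0.07 SE. Of 3 PDGF list genes tested in the polarization set, the urokinase gene Plau fell by 1.22 in LPS cells, and neither receptor, Pdgfra or Pdgfrb, was detected.

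Areg and Gdf15 had no probe, so related genes were read in their place. Of 8 tested genes of the EGF receptor family and its shedding enzymes, the ligand gene Nrg4 was at least 3.16-fold higher in LPS cells (not well above background in M0, fitted adjusted p = 0.00301), and the ligand-releasing protease gene Adam17 fell by 0.70. In IL-4 cells the ligand gene Hbegf rose by 2.53 ± 0.29 SE and Adam17 fell by 0.81. Hbegf (0.74) and Rhbdf1 (0.46), which encodes a partner of Adam17, rose in SR3335 cells. Of 6 tested genes in the list read for Gdf15, the stress factor genes Atf3 (-0.56) and Egr1 (-0.55) fell in LPS cells. In IL-4 cells Atf3 (1.04) and Chac1 (0.67) rose. None of the 6 was called in SR3335 or SR1078 cells by the limma test, and the Atf3 probe is among the 30 whose tables differ.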

How the data were processed

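RNA of 12 Kupffer cell samples was measured on Illumina bead arrays, and each sample was placed in its group by its title. The bead signals are intensity values with neither background subtraction nor normalization between arrays, deposited by the authors as 1 table, and the submitters' processing notes name GenomeStudio 2011.1. Each has a detection p-value beside it, per the file headers. The authors' processed values are on the log2 scale, with their steps not given in the sources used here; they equal the signals after quantile normalization by set, apart from the 30 probes described above. No genome build is given for the arrays, and the positions printed are those of RefSeq genes (GRCm38.p6).

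Symbols came from the platform annotation and were updated by gene identifier for 23962 probes. Of all probes, 23978 had 1 symbol, 0 had several and 1719 had none. Within each set, limma 3.58.1 (R 4.3.3) corrected background by normexp, taking its negative control levels from the detection p-values, added an offset of 16, quantile-normalized and took log2. Probes with a detection p-value under 0.05 on at least 2 arrays were fitted with 1 mean per group (3 residual degrees of freedom), with Benjamini-Hochberg adjustment over all probes tested. The number of arrays limits the precision. Where a probe was detected on no array of a group, its fold is at least the value against the lowest detected signal. Summed marker levels are linear signals above the offset, over the brightest probe of each gene. The code was tested on simulated data.

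The members, lists and tests were chosen with earlier results of these data known. Every member probe is named, and in each list up to 2 called genes with the largest rise and up to 2 with the largest fall. Igfbp7, the undetected genes and the markers named beside the results were chosen after their values were seen. Replicate numbers were not stated to pair samples, and same-numbered samples deviated together at r = -0.01 to 0.11. Alternatives were no background correction, median centring, the processed values, no filter, a stricter filter (detection p-value under 0.01 on both arrays of a group), all 12 arrays together, only the groups compared, a replicate block, 1 probe per gene and each array left out. Python 3.11.15 with pandas 2.3.3 and matplotlib 3.10.9 made the figures.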

Additional observations from a re-analysis of the deposited data

How the results depend on the processing

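Calls rest on 2 arrays a group, and that number limits the precision. Every called member difference kept its direction in every alternative run. The calls of Igf1, Pdgfc, Tgfbr1 ILMN_2602711 and Tgfbi ILMN_2834379 in LPS minus M0, and of Igf1, Pdgfc and both Tgfbi probes in LPS minus IL-4, held in all of them, while those in the compound set did not. As reported, 2478 probes were called in LPS minus M0, 886 in IL-4 minus M0, 3148 in LPS minus IL-4, 687 in SR3335 minus Veh, 136 in SR1078 minus Veh and 774 in SR3335 minus SR1078. With all 12 arrays together, 3883 probes were called in LPS minus M0 and 2359 in IL-4 minus M0, and member calls were 8 in LPS minus IL-4, 1 in SR1078 minus Veh and 1 in SR3335 minus SR1078. Without background correction the calls were 1834 in IL-4 minus M0, 1349 in SR3335 minus Veh (5 members), 793 in SR1078 minus Veh (2 members) and 1494 in SR3335 minus SR1078 (4 members), and with the authors' processed values 1834, 1375 (5 members), 804 (2 members) and 1500 (4 members). Without the filter these comparisons gave 502, 394, 41 and 479 calls (1 member in the last). With the stricter filter the compound comparisons gave 1091 (5 members), 590 (1 member) and 1220 (4 members). In fits of only the groups compared, calls were 301 in IL-4 minus M0, 206 (0 members) in SR3335 minus Veh, 0 in SR1078 minus Veh and 271 (1 member) in SR3335 minus SR1078. The replicate numbers were not shown to pair samples, and the replicate block gave 485, 225 (1 member), 0 and 373 (1 member). Median centring called 1 member in SR1078 minus Veh. With 1 probe per gene, members called were 3 in LPS minus IL-4, 5 in SR3335 minus Veh and 1 in SR1078 minus Veh, with 206 calls over all genes in the last. With 1 array left out, where the fit gives a single array the spread of the remaining groups, calls ranged from 707 to 3121 in LPS minus M0 (4 to 8 members), 18 to 1296 in IL-4 minus M0 (0 to 3), 1337 to 3247 in LPS minus IL-4 (4 to 5), 0 to 275 in SR3335 minus Veh (0 to 1), 0 to 0 in SR1078 minus Veh (0 to 0) and 0 to 297 in SR3335 minus SR1078 (0 to 1). Leaving out M0 replicate 1 or 2 left 18 and 21 calls in IL-4 minus M0 and 769 and 707 in LPS minus M0, LPS replicate 1 or 2 left 828 and 766 in the second of these, and every array of the compound set lowered all 3 of its counts by more than 1.5 times. Where limma called 0 of all probes, 2634 (only the groups compared), 2526 (replicate block) and 1851 to 2636 (an array left out) had an unadjusted p under 0.05. Differences that changed sign were not called before or after. Tgfbi ILMN_2727663 in IL-4 minus M0 was -0.00101 without background correction and -0.000875 in the processed values, and under median centring Tgfb1 was -0.0128 in SR3335 minus Veh and Pdgfb -0.0171 in SR3335 minus SR1078. With an array left out, IL-4 minus M0 ranged from -0.290 to 0.313 for Tgfbi ILMN_2727663, -0.111 to 0.238 for Pdgfc and -0.446 to 0.147 for Tgfbr2 ILMN_1242086. LPS minus IL-4 ranged from -0.290 to 0.0457 for Tgfbr1 ILMN_2708965, -0.0736 to 0.0158 for Tgfbr2 ILMN_2760979 and -0.409 to 0.180 for Tgfbr2 ILMN_1242086. SR3335 minus Veh ranged from -0.0622 to 0.0985 for Tgfb1 and -0.108 to 0.0496 for Tgfbr2 ILMN_1242086. SR1078 minus Veh ranged from -0.00803 to 0.153 for Tgfb1, -0.130 to 0.0450 for Tgfbr2 ILMN_2760979, -0.0424 to 0.0558 for Tgfbr1 ILMN_2602711 and -0.297 to 0.0539 for Tgfbr1 ILMN_2980532. SR3335 minus SR1078 ranged from -0.130 to 0.0210 for Tgfb1 and -0.214 to 0.0273 for Tgfbi ILMN_2727663. The cause of these changes was not tested.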

Other observations

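The probes whose levels ran most like those of the member genes were read over the 12 arrays, as deviations from the mean of their own array set, among 11733 probes tested in both sets. These are descriptions over arrays that share groups and normalization within a set. Igf1 was most like Trub1 (r = 0.984), the tRNA ligase gene Gars (r = 0.982), the latent TGF-beta anchor gene Nrros (r = 0.979), the adhesion gene Icam2 (r = 0.978) and the mannose receptor gene Mrc1 (r = 0.975), and the Mrc1 probe is, like that of Igf1, among the 30 whose tables differ. Pdgfc was most like the cytochrome gene Cyp4f18 (r = 0.980) and the lipid-sensing nuclear receptor gene Pparg (r = 0.976), then Hip1, Gnptg and Clec1b. Tgfbi ILMN_2834379 was most like the adenosine kinase gene Adk (r = 0.990) and the matrix-degrading Mmp9 (r = 0.989), then Pld1, Emilin2 and Dlgap2, and Dlgap2 was also among the 5 nearest to the other Tgfbi probe. Tgfbr1 ILMN_2602711 was most like Vezf1 (r = 0.984) and Acot1 (r = 0.983), then Rad50, Nxpe4 and the T cell marker Cd3g (r = 0.973), and Tgfbr2 ILMN_2760979 like Mknk1 (r = 0.970) and Smarca2 (r = 0.969), then Slc40a1, Selenop and Higd2a. The dimmer Tgfbr2 probe ILMN_1242086 was nearest to Ptprcap (r = 0.901). Pdgfa was nearest to the proteoglycan gene Prelp (r = 0.898) and Pdgfb to Exoc3l4 (r = 0.928).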
